A study of Mus musculus with 28 samples.

Results

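Axon guidance ligands and receptors were followed across the 28 libraries of the series: 73 of the 51912 genes in the count table. The members are the protein-coding mouse genes named Epha or Ephb, Efna or Efnb, Sema3 to Sema7, Plxn, Nrp1 and Nrp2, Slit, Robo, Ntn, Ntng, Unc5, Dcc, Neo1, Rgma and Rgmb. They comprise 14 Eph receptors, 8 ephrins, 20 semaphorins, 9 plexins, 2 neuropilins, 3 Slits, 4 Robo receptors, 3 netrins, 2 netrin-Gs, 4 Unc5 receptors, Dcc, Neo1 and 2 repulsive guidance molecules. The netrins are Ntn1, Ntn4 and Ntn5, since Ntn3 was not matched in the count table. Membership rests on gene names and not on any measured value, though the set was chosen with earlier results of these data known.

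Nuclear RNA came from the muscle layer and myenteric plexus of C57BL/6 mice, all of which had received, 5 weeks earlier, an adeno-associated virus (AAV9) that expresses a nuclear envelope-targeted EGFP under a CaMKII promoter. Nuclei were sorted into an EGFP-positive fraction, called neuronal, and an EGFP-negative fraction, called non-neuronal. The neuronal fraction is therefore limited to neurons that the virus reached and in which the promoter is active, and the non-neuronal fraction can hold neurons it missed. Each fraction was taken from the colon and the small intestine of specific pathogen-free (SPF) mice, which carry a microbiota, and of germ-free (GF) mice, which do not. Each of these 8 groups had 4 SPF or 3 GF libraries. The labels give no age and do not say that libraries came from separate animals, so p-values reflect library-to-library spread alone, some of which may be technical.

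Growing axons read their surroundings through a small number of ligand and receptor families. Ephrins bind Eph receptor kinases, semaphorins bind plexins with neuropilins as coreceptors for the secreted class, Slits bind Robo receptors, and netrins bind Dcc, neogenin (Neo1) and the Unc5 receptors. Many of these proteins remain in the adult and also act in blood vessels, epithelia and immune cells. In the gut, netrin and semaphorin signalling takes part in the migration and wiring of enteric neurons.

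Library totals ran from 2394481 to 7321875 counts, and the members took 0.218% to 0.632% of them. Levels are CPM, the share of the library total scaled to a common size, and 3 counts, the upper limit for a gene with 0 counts, equalled 0.41 to 1.25 CPM depending on the library. The 9 markers fixed for enteric neurons summed to between 3444 and 5665 CPM in the 14 neuronal libraries. In non-neuronal libraries they summed to 716.5 to 1544 CPM (SPF) and 803.2 to 1182 CPM (GF) in the colon, against 13.9 to 661.4 CPM (SPF) and 43.0 to 177.3 CPM (GF) in the small intestine. Neuronal RNA was thus present in every non-neuronal group, and more of it in the colon. In SPF mice, replicates 3 and 4 of every group held at least 5594 CPM of the RNA Xist, and all other libraries at most 63.0 CPM, so the SPF groups were mixed in a way that the GF groups were not.

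Compared per kilobase of exon, the scale on which genes can be set against each other, the most abundant guidance RNA of the 14 neuronal libraries was Plxnb1, which encodes plexin-B1, at 72.9 CPM per kb. It was followed by Nrp2 (neuropilin-2) at 44.7, Ntng1 (netrin-G1) at 41.0, Plxna3 (plexin-A3) at 30.7 and Unc5a, a netrin receptor, at 27.9 CPM per kb. In the 14 non-neuronal libraries the order of level per kb was Nrp2 at 49.6, Epha7 at 24.4, Sema6d at 19.9 and Sema6a at 18.5 CPM per kb. Within families, the leading Eph receptor per kb was Epha5 in neuronal and Epha7 in non-neuronal libraries, the leading ephrin was Efna5 and Efnb2, the leading Robo receptor Robo1 and Robo2, the leading netrin Ntn4 and Ntn1, and the leading repulsive guidance molecule Rgmb and Rgma. Sema6d, Plxnb1, Nrp2, Slit3, Ntng1 and Unc5a led their families in both fractions. The plot of levels per kilobase shows Eph receptors, semaphorins and plexins on both sides of equality.

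**Figure D1:**
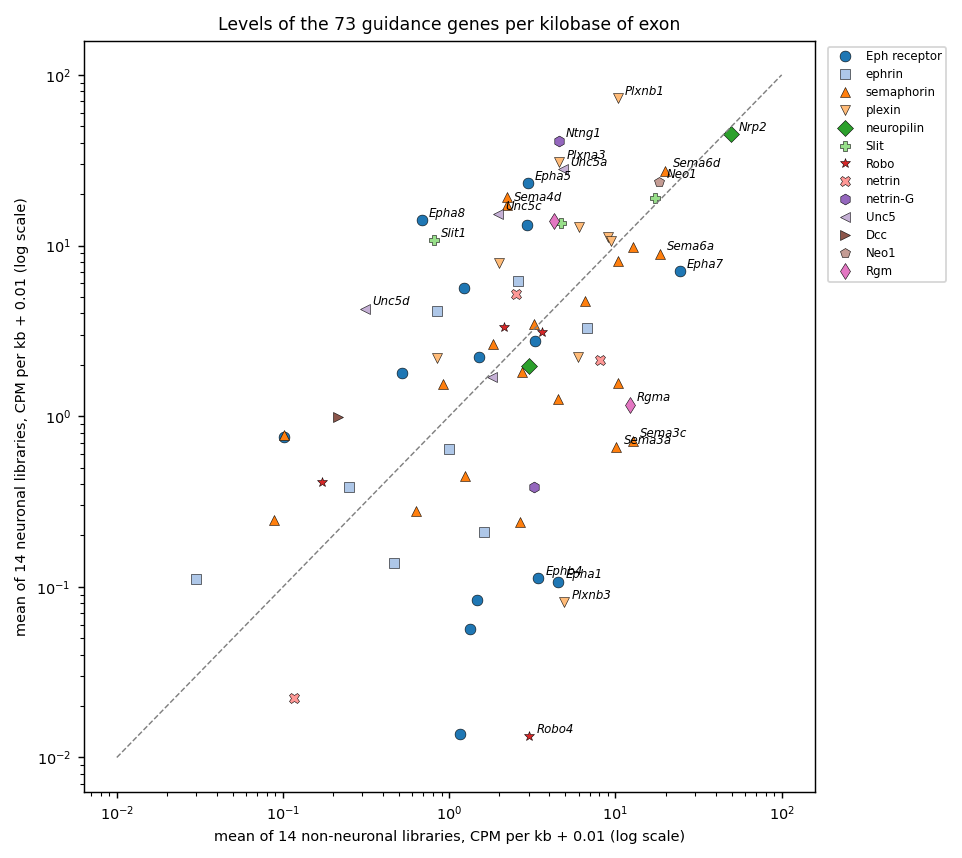
Mean level of each of the 73 guidance genes in the 14 non-neuronal libraries (x axis) and the 14 neuronal libraries (y axis), in CPM per kb of exon plus 0.01 on log scales; symbols mark families and the dashed line marks equal levels. Plxnb1 stands highest on the neuronal axis at 72.9 CPM per kb, Nrp2 lies near equality at 44.7 and 49.6 CPM per kb, and Robo4, Plxnb3, Epha1 and Ephb4 lie far below the line.

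The comparison of sorted fractions asked which guidance genes mark the neuronal nuclei. Of the 73 members, 68 passed the low-count filter and were tested, in edgeR's quasi-likelihood test over 20964 genes. Calls required a Benjamini-Hochberg adjusted p under 0.05. In the SPF colon 9 members were higher and 16 lower in neuronal libraries, where 3.27% of all tested genes were called higher and 7.56% lower. In the SPF small intestine 16 were higher and 9 lower, against 9.09% and 5.99% of all genes. In the GF colon 6 were higher and 10 lower (2.19% and 4.96% of all genes, 7.16% in either direction), and in the GF small intestine 14 were higher and 9 lower (5.6% and 5.33%). The share of members called was thus above the share of all genes in each direction of each comparison. The median log2 fold change of the tested members was 0.05, 0.48, -0.19 and 0.45 in these 4 comparisons, beside -0.05, 0.03, -0.07 and 0.02 over all tested genes. The tested members thus spread to both sides. Of the 35 receptors, 5, 11, 3 and 9 were higher and 10, 5, 6 and 5 lower in the colon and small intestine of SPF and then of GF mice. Of the 33 tested ligands, 4, 5, 3 and 5 were higher and 6, 4, 4 and 4 lower. Of the 9 enteric neuron markers, 4, 9, 3 and 8 were higher and 0 lower in the same order. Their median log2 fold changes were 2.09, 5.06, 2.42 and 5.19. Most of these markers were thus not called in the colon, so the lack of a call there does not show equal levels.

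Across the 4 comparisons, 19 members were higher in neuronal libraries in at least 1 and 19 were lower in at least 1. No member was called in opposite directions, 30 were tested and called in none, and 5 were not tested. The receptors Plxnb1, Plxna3 and Unc5c and the cues Ntng1 and Sema4d were higher in all 4 comparisons. Sema3a, Sema3c, Epha1 and Robo4 were lower in all 4. Over all 14 neuronal against all 14 non-neuronal libraries, the CPM of Sema4d, Slit1, Epha5, Plxna3, Plxnb1 and Unc5c did not overlap, with the neuronal libraries above, as for 1.57% of all tested genes. Sema3a did not overlap in the other direction, as for 1.19% of genes. In bulk nuclei, fewer cells of a type and less RNA per cell cannot be told apart, so a lower level in a fraction may be either.

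**Figure D2:**
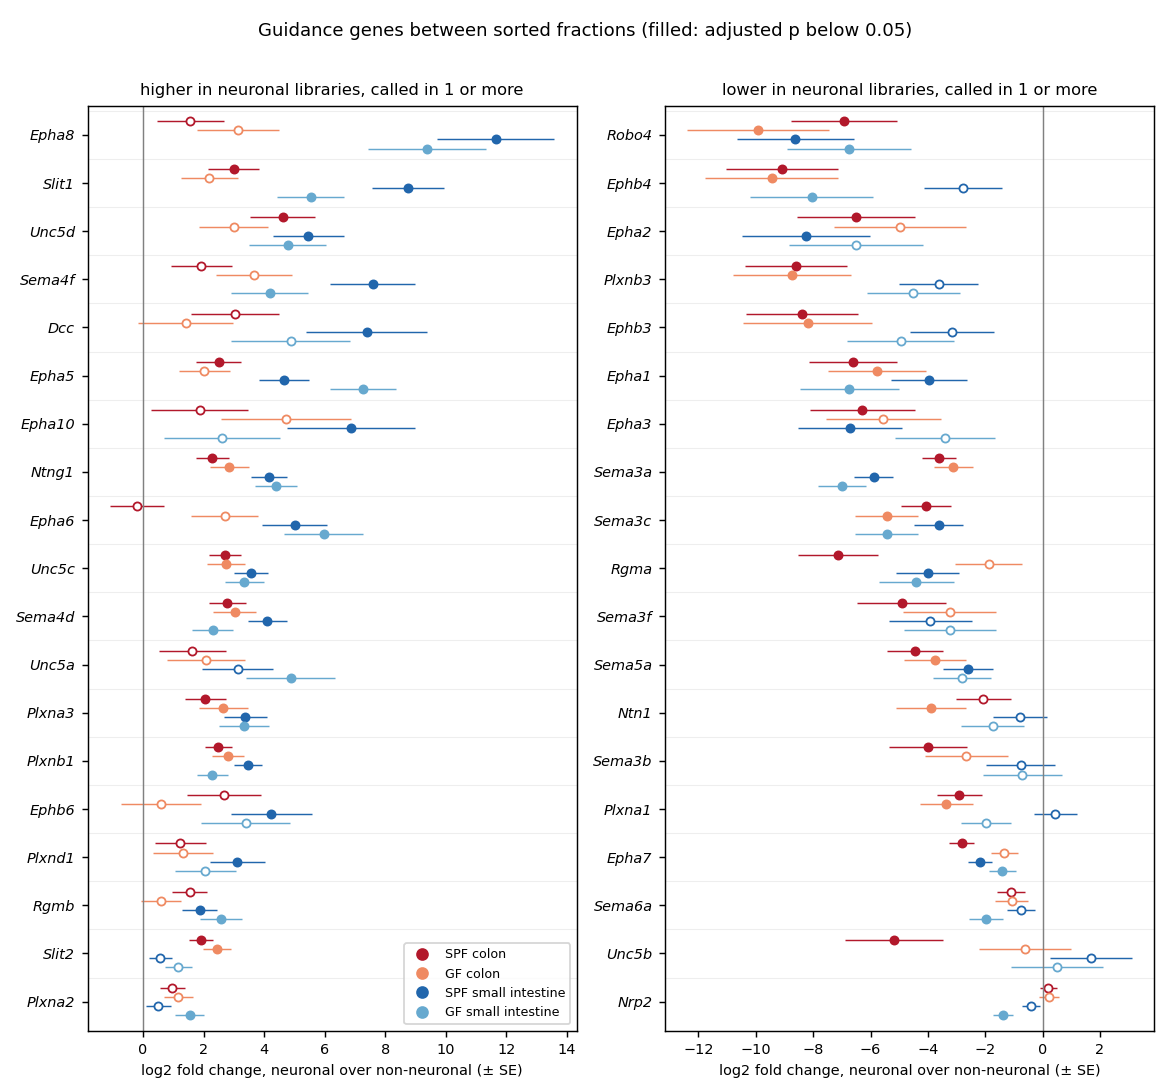
Log2 fold change, neuronal over non-neuronal, with its SE, of the 19 members called higher (left) and the 19 called lower (right) in at least 1 of 4 comparisons; colours mark the comparison and filled points have an adjusted p below 0.05. Plxnb1 is filled in all 4 comparisons, between 2.29 and 3.46, and Nrp2 is filled in the GF small intestine only.

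Promoters of 4 of these genes are printed here to show how unlike the starts of genes that moved together were, 2 from the genes that were higher and 2 from those that were lower in neuronal nuclei. Each runs from 250 bases before to 50 bases after a RefSeq transcript start on GRCm38.p6, plus strand, 5′ to 3′, with capitals on any match, on either strand, to the GC box, an E-box, the TATA box, an ETS site or a paired homeobox site. The Plxnb1 window lies at chr9:109095186-109095485 and that of Unc5c at chr3:141465314-141465613. The Sema3c window lies at chr5:17574566-17574865 and that of Robo4 at chr9:37401722-37402021.
Plxnb1: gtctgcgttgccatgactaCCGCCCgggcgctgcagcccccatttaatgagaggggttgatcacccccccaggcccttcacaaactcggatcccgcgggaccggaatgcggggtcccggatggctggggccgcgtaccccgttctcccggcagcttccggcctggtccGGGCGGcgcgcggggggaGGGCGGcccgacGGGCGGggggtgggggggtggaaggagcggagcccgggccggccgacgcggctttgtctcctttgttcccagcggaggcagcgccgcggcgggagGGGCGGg
Unc5c: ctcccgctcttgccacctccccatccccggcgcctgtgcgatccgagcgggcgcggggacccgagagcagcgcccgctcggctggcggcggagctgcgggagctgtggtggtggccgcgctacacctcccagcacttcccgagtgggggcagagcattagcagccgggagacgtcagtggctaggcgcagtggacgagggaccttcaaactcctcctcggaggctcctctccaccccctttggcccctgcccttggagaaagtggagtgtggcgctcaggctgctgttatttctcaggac
Sema3c: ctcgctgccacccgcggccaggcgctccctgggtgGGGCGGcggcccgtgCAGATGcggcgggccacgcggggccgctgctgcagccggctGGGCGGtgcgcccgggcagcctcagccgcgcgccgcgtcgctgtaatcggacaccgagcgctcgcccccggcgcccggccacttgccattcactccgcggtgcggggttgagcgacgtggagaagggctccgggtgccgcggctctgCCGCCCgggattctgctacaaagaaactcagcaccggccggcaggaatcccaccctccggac
Robo4: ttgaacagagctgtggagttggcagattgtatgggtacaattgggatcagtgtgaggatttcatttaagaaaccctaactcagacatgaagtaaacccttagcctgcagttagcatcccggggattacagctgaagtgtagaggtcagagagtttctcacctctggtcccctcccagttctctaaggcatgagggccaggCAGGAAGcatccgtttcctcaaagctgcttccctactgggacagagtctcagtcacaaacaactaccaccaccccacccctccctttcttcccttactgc
Plxnb1 holds 36 CpG dinucleotides and 5 GC boxes in its 300 bases, and Unc5c holds 24 CpG and none of the motifs. Sema3c, which was lower in neuronal nuclei, holds 42 CpG, 3 GC boxes and 1 E-box, while Robo4 holds 2 CpG and 1 ETS site. The 4 were picked to show this range. Of the other members called in all 4 comparisons, the higher ones held 28 CpG (Ntng1), 18 (Plxna3) and 2 or 3 at the 3 starts of Sema4d, and the lower ones 2 (Sema3a) and 14 (Epha1). The windows of Unc5c, Sema3c, Ntng1, Sema3a and Sema4d lie within the annotated genes. The outermost annotated starts of these genes were not among the windows. RefSeq windows were at hand for 62 members, 80 windows in all. Their median CpG count was 20, beside 7 over 32851 windows of all genes. A GC box, searched as GGGCGG, occurred in 70% of member windows and 35.7% of all windows. The E-box searched, among the several forms that such sites take, was CATCTG and occurred in 7.5% of member windows and 17.2% of all windows. For the TATA box, which lies upstream of the start of some genes, the letters were TATAAA and the shares 5% and 13.6%. The ETS site, a motif of the factors that bind purine-rich DNA, was searched as CAGGAAG and had shares of 11.2% and 13.3%. The paired homeobox site had shares of 0% and 0.487%. A match is a description of the letters and not a binding site.

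Among receptors, Plxnb1, Plxna3 and Unc5c were higher in neuronal nuclei in all 4 comparisons. Plexin-B1 is the receptor of the membrane semaphorin Sema4D. Its level ran from 352.1 to 1045 CPM, with a median of 697.3, in the 14 neuronal libraries and from 23.0 to 241.6 CPM, with a median of 73.8, in the 14 non-neuronal ones. Every neuronal library stood above every non-neuronal one. The log2 fold change was 2.48 (SE 0.45, adjusted p = 0.000227) in the SPF colon and 2.81 (SE 0.53, adjusted p = 0.000515) in the GF colon. In the small intestine it was 3.46 (SE 0.47, adjusted p = 1.22e-06) with and 2.29 (SE 0.51, adjusted p = 0.00214) without a microbiota. Its exons overlap those of Gm7628 on the opposite strand, and the strand setting of the counting is not stated in the sources used. The ligand of plexin-B1 was also higher: Sema4d ran from 52.1 to 297.1 CPM (median 105.5) in neuronal and from 1.53 to 33.8 CPM (median 19.5) in non-neuronal libraries. The difference for Sema4d was 4.10 (SE 0.65, adjusted p = 1.37e-05) in the SPF small intestine and between 2.31 and 3.02 in the other comparisons. In the GF small intestine the call for Sema4d was lost without any 1 of 3 of the 6 libraries. The RNAs of both partners of this ligand and receptor pair were higher in the same fraction.

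Plxna3, which with neuropilins forms receptors for secreted class 3 semaphorins, ran from 154.1 to 361.4 CPM (median 230.8) in neuronal and from 0.84 to 104.8 CPM (median 27.8) in non-neuronal libraries. Its log2 fold change was 3.38 (SE 0.72, adjusted p = 0.00121) in the SPF and 3.33 (SE 0.83, adjusted p = 0.00664) in the GF small intestine. In the colon it was 2.05 (SE 0.68, adjusted p = 0.0471) in SPF and 2.65 (SE 0.80, adjusted p = 0.039) in GF mice. The colonic calls were near the threshold: the SPF one was lost without any 1 of the 8 SPF colonic libraries, with values of 1.88 to 2.35, and the GF one without 5 of the 6 GF libraries. Neither neuropilin was called between fractions in the colon. Nrp2 averaged 711.3 ± 411.6 CPM in SPF colonic neuronal and 603.1 ± 94.1 CPM in non-neuronal libraries (SD, n = 4 each; log2 fold change 0.20, SE 0.30, adjusted p = 0.756). Nrp2 was called lower in neuronal nuclei only in the GF small intestine, at 389.2 ± 23.6 against 641.7 ± 122.3 CPM (SD, n = 3 each; log2 fold change -1.38, SE 0.35, adjusted p = 0.00743). That call was lost without GF small intestinal non-neuronal replicate 1 (-1.03). Its fitted difference is greater than that of the CPM, through the TMM scaling factors applied to library totals. These factors were 0.54, 0.96 and 0.62 in GF small intestinal non-neuronal and 1.09, 1.09 and 0.96 in neuronal libraries. They enter every fitted difference between fractions in the GF small intestine.

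The netrin receptors of the Unc5 family were the family with the highest median difference in the GF small intestine among families of more than 2 tested members, 4.06, with 3 of 4 members called higher. Unc5c, a repulsive netrin receptor, ran from 151.9 to 481.2 CPM (median 255.5) in neuronal and from 2.94 to 96.8 CPM (median 30.5) in non-neuronal libraries, with no overlap. Its log2 fold change was 2.70 (SE 0.53) and 2.74 (SE 0.62) in the SPF and GF colon and 3.56 (SE 0.56) and 3.34 (SE 0.64) in the SPF and GF small intestine. The largest of its 4 adjusted p-values was 0.00362. Its exons overlap those of Gm15688 on the opposite strand. Unc5d was called in 3 comparisons and averaged 64.7 ± 16.9 CPM in SPF colonic neuronal against 2.60 ± 2.75 CPM in non-neuronal libraries (SD, n = 4 each), a 24.9-fold difference. In the GF colon its difference was 2.99 (SE 1.14, adjusted p = 0.1). Unc5a was called only in the GF small intestine, at 123.0 ± 18.9 against 3.61 ± 5.47 CPM (SD, n = 3 each; log2 fold change 4.87, SE 1.47, adjusted p = 0.0316). Its values in the other comparisons ran from 1.63 to 3.12, and the call was lost without 5 of the 6 libraries. Dcc, the attractive netrin receptor, was called only in the SPF small intestine, at 5.59 ± 3.33 CPM in neuronal libraries and 0 counts in all 4 non-neuronal ones, at least 5.76-fold higher. Neo1, the other receptor of this type, was near equality, with 102.8 to 362.2 CPM in neuronal and 52.1 to 386.4 CPM in non-neuronal libraries and no call.

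Netrin-G1, encoded by Ntng1, is an anchored relative of the netrins that binds the protein of Lrrc4c across the synapse and does not bind Dcc. Ntng1 ran from 81.8 to 471.3 CPM (median 358.8) in neuronal and from 1.96 to 110.8 CPM (median 33.4) in non-neuronal libraries. A single neuronal library, SPF colon replicate 1 at 81.8 CPM, fell within the non-neuronal range. The log2 fold change was 2.28 (SE 0.55, adjusted p = 0.00471) in the SPF and 2.84 (SE 0.65, adjusted p = 0.00423) in the GF colon. In the small intestine it was 4.17 (SE 0.60, adjusted p = 3.56e-06) in SPF and 4.38 (SE 0.70, adjusted p = 2.99e-05) in GF mice. Ntng2, its paralog, was called in none.

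Eph receptors divided. Epha5, an ephrin-A receptor of neurons, ran from 240.5 to 659.4 CPM (median 362.5) in neuronal and from 0.22 to 144.8 CPM (median 42.7) in non-neuronal libraries, and it was called higher in all but the GF colon (2.02, SE 0.84, adjusted p = 0.146). In the SPF colon (2.50, SE 0.74, adjusted p = 0.0294) the call was lost without any 1 of 4 libraries. Epha6 and Epha8 were called higher in both small intestinal comparisons and Ephb6 and Epha10 in the SPF one. Epha8 averaged 103.7 ± 47.3 CPM in SPF small intestinal neuronal libraries and had 0 counts in all 4 non-neuronal ones, at least 107-fold higher. Other Eph receptors were called lower in at least 2 comparisons: Epha1 in 4, Epha7 and Ephb4 in 3, and Epha2, Epha3 and Ephb3 in 2. Epha7, the Eph receptor with the highest level per kb in non-neuronal libraries, ran from 101.0 to 476.6 CPM there and from 20.7 to 105.8 CPM in neuronal libraries. Its log2 fold change was -2.82 (SE 0.43, adjusted p = 1.96e-05) in the SPF colon and -2.18 (SE 0.42, adjusted p = 0.000268) in the SPF small intestine. In GF mice it was -1.33 (SE 0.48, adjusted p = 0.0796) in the colon and -1.40 (SE 0.48, adjusted p = 0.0496) in the small intestine, where the call was lost without any 1 of 5 of the 6 libraries. As for Nrp2, the TMM scaling factors made the fitted Epha7 difference in the GF small intestine greater than that of the CPM. No ephrin was called in any of the 4 comparisons, with 5 of 8 tested.

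Epha1, an Eph receptor of epithelia, was at most 1.67 CPM in the 14 neuronal libraries, 6 of them at 0, and from 1.53 to 78.8 CPM (median 11.1) in non-neuronal ones. Robo4, the Robo receptor of endothelial cells, had 0 counts in 13 of 14 neuronal libraries and a highest value of 77.0 CPM (median 9.08) in non-neuronal ones, of which 2 were at 0. The called difference for Robo4 in the GF colon was at least 35.3-fold, and in the SPF small intestine at least 9.7-fold. Ephb4, a receptor of venous endothelium, had 0 counts in all 7 colonic neuronal libraries, at least 15.9-fold (SPF) and 25.2-fold (GF) below the non-neuronal means of 19.7 ± 14.5 (SD, n = 4) and 25.4 ± 7.77 CPM (SD, n = 3). The call for Epha1 was lost without any 1 of 5 of the 8 libraries in the SPF small intestine, and without any 1 of 3 of the 6 in the GF colon and in the GF small intestine. That for Robo4 in the GF colon was lost without neuronal replicate 1 or 2, and that for Ephb4 in the GF small intestine without neuronal replicate 2 or 3. The fitted log2 fold changes of such genes depend on the small count that the fit adds and are not bounds. The 10 endothelial markers summed to 571.2 to 1353 CPM in SPF and 839.4 to 1176 CPM in GF colonic non-neuronal libraries, to 52.7 to 315.6 CPM in small intestinal ones, and to at most 61.7 CPM in neuronal ones. The 7 epithelial markers summed to 1724 to 12810 CPM in SPF and 3081 to 5355 CPM in GF colonic non-neuronal libraries, to 163.6 to 2034 CPM in small intestinal ones, and to at most 89.0 CPM in neuronal ones. The part of these cell types in the levels of Robo4, Ephb4, Epha1, Epha2 and Ephb3 was not tested.

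The plexins Plxnb3 and Plxna1 were lower in neuronal nuclei, both in the colon of SPF and GF mice. Plxnb3, a plexin-B receptor, averaged 45.7 ± 62.1 CPM in SPF (SD, n = 4) and 61.4 ± 48.6 CPM in GF colonic non-neuronal libraries (SD, n = 3), with 1 count in all in the neuronal libraries of each. Plxna1 averaged 68.4 ± 40.8 CPM in GF colonic non-neuronal and 6.06 ± 2.10 CPM in neuronal libraries (SD, n = 3 each; log2 fold change -3.35, SE 0.93, adjusted p = 0.0203), a call lost without any 1 of 4 of the 6 libraries. In the SPF small intestine Plxna1 was 0.45 (SE 0.73, adjusted p = 0.736). Of the other plexins, Plxnd1 was called higher in the SPF and Plxna2 in the GF small intestine, and Plxna4, Plxnb2 and Plxnc1 in none.

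**Figure D3:**
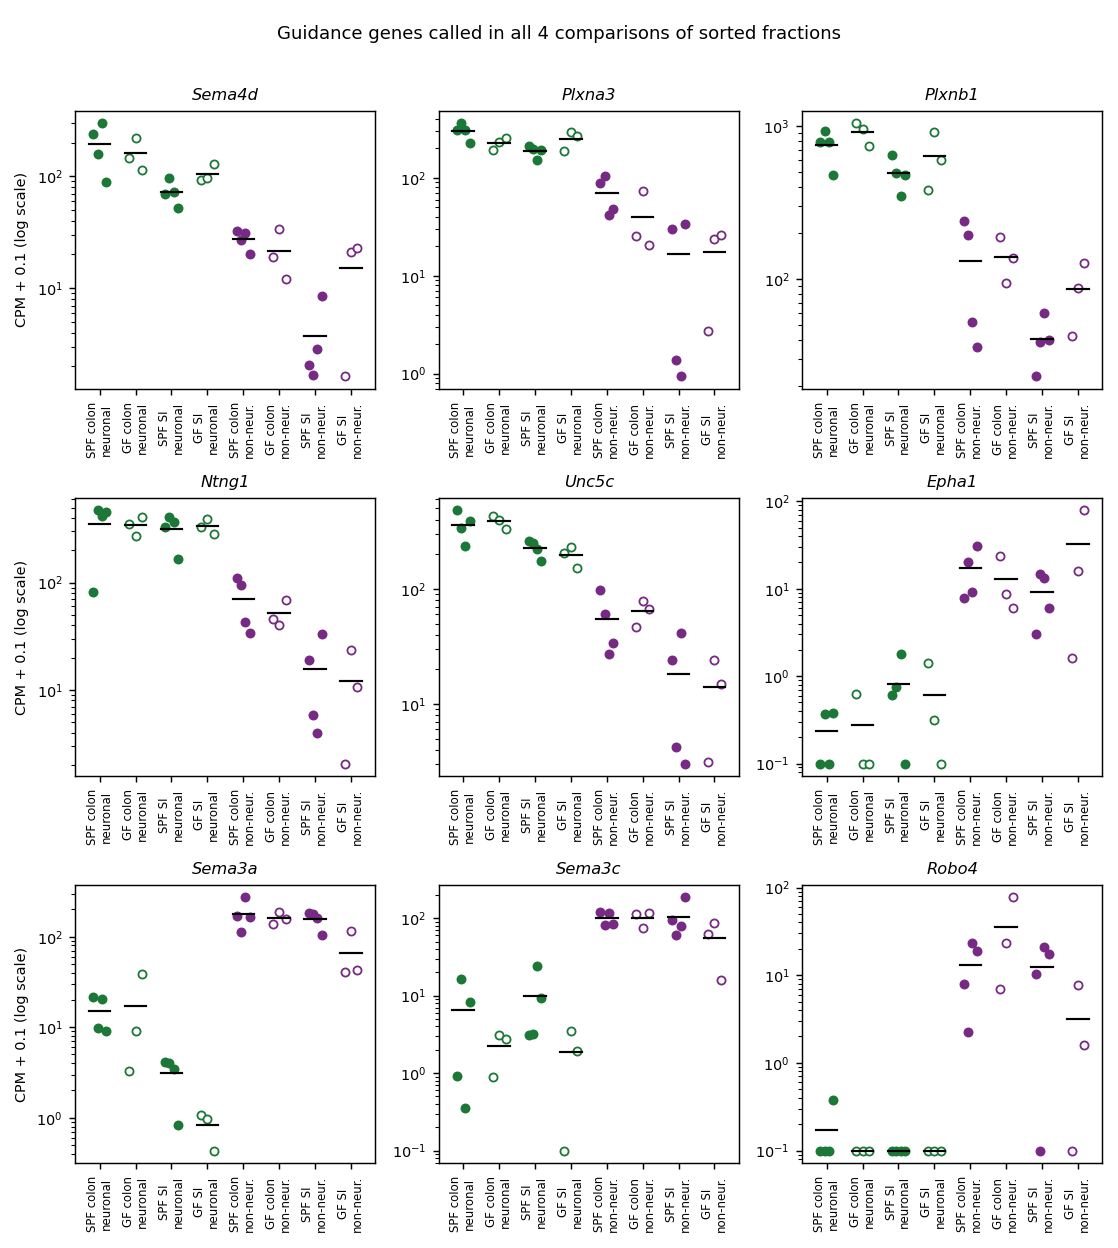
CPM plus 0.1, on log axes, of the 9 members called in all 4 comparisons of fractions, in the libraries of the 8 groups; each point is a library, filled for SPF and open for GF, green for neuronal and purple for non-neuronal, and bars are group means of 4 SPF or 3 GF libraries. Sema4d, Plxna3, Plxnb1 and Unc5c lie higher in every neuronal than in any non-neuronal library, Ntng1 does so but for 1 library at 81.8 CPM, and Robo4 is at 0 counts in 13 of 14 neuronal libraries.

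Among ligands, the secreted semaphorins Sema3a and Sema3c were lower in neuronal nuclei in all 4 comparisons. Sema3A repels axons through neuropilin-1 and A-type plexins, and Sema3C also acts on neural crest and vascular cells. Sema3a ran from 40.4 to 271.5 CPM (median 158.9) in non-neuronal and from 0.33 to 38.9 CPM (median 3.97) in neuronal libraries. Every non-neuronal library stood above every neuronal one, the nearest pair being 40.4 and 38.9 CPM. The log2 fold change of Sema3a was -3.60 (SE 0.60, adjusted p = 6.34e-05) and -3.12 (SE 0.68, adjusted p = 0.00262) in the SPF and GF colon. In the small intestine it was -5.89 (SE 0.68, adjusted p = 3.88e-08) in SPF and -6.999 (SE 0.85, adjusted p = 1.9e-07) in GF mice. Sema3c ran from 15.8 to 185.3 CPM (median 85.8) in non-neuronal and from 0 to 24.2 CPM (median 3.02) in neuronal libraries, with differences between -5.44 and -3.62 and adjusted p-values of at most 0.0027. Sema5a, a transmembrane semaphorin, was called lower in 3 comparisons, at 118.7 ± 103.8 CPM in SPF colonic non-neuronal and 5.68 ± 6.72 CPM in neuronal libraries (SD, n = 4 each). Its call in the SPF small intestine was lost without any 1 of 7 libraries. In the GF small intestine it missed the call (-2.82, SE 1.02, adjusted p = 0.0771).

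Rgma, a ligand of neogenin, was called lower in 3 comparisons, at 119.5 ± 63.1 CPM in SPF small intestinal non-neuronal and 7.91 ± 5.26 CPM in neuronal libraries (SD, n = 4 each). In the GF colon its difference was -1.87 (SE 1.17, adjusted p = 0.351), and there neuronal replicate 2 held 40.8 CPM while the other 2 held 0.27 and 0.30 CPM. Its paralog Rgmb went the other way and was called higher in the small intestine, at 147.4 ± 47.7 against 17.7 ± 13.0 CPM in GF libraries (SD, n = 3 each; log2 fold change 2.59, SE 0.69, adjusted p = 0.0105). In the GF small intestine the call for Rgma was lost without any 1 of 3 of the 6 libraries and that for Rgmb without any 1 of 2. Sema3b, Sema3f, Sema6a and Ntn1 were each called lower in a single comparison.

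Markers of some muscle-layer cell types were lower in the same fraction as these ligands. In each of the 4 comparisons all 10 smooth muscle markers were called lower in the neuronal fraction, with medians of -3.31 and -3.89 in the SPF and -4.17 and -3.92 in the GF colon and small intestine. They summed to 8654 to 19690 CPM in non-neuronal and at most 1319 CPM in neuronal libraries. All 6 markers of fibroblasts and PDGFRA-positive cells were also lower in each, with medians between -5.93 and -4.31 and sums of 836.9 to 1525 CPM against at most 88.4 CPM. Of the 5 mesothelial markers 3, 5, 5 and 4 were lower, with sums of 51.5 to 193.7 CPM against at most 5.84 CPM. Krt19, Lrrn4, Msln and Wt1 of that list were at 0 in the GF colonic neuronal libraries. Other lists were mixed. Of the 4 markers of interstitial cells of Cajal, 3, 1, 2 and 1 were lower and 1, 1, 0 and 1 higher in the same order. Their medians were -5.36, 0.456, -5.74 and -1.71. Of the 6 tested glial markers 2, 1, 3 and 3 were lower, and of the 6 macrophage markers 3, 1, 1 and 0. The part of these cell types in the levels of Sema3a, Sema3c, Sema5a, Rgma and Epha7 was not tested.

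Of the Slit ligands, Slit1 and Slit2 were called only as higher. Slit3, the leading Slit per kb in both fractions, was called in none. It ran from 34.0 to 290.0 CPM in neuronal and from 43.0 to 253.3 CPM in non-neuronal libraries. Slit1 ran from 19.99 to 105.4 CPM (median 68.6) in neuronal and from 0 to 16.6 CPM (median 1.66) in non-neuronal libraries. It was called in 3 comparisons, with log2 fold changes of 2.99 (SE 0.84, adjusted p = 0.0168, lost without any 1 of 3 libraries) in the SPF colon and 5.53 (SE 1.11, adjusted p = 0.000582) in the GF small intestine. Slit2 had 236.7 to 496.7 CPM (median 339.5) in neuronal and 19.6 to 309.0 CPM (median 114.2) in non-neuronal libraries. Slit2 was called in both colonic comparisons, at 1.91 (SE 0.38, adjusted p = 0.000735) and 2.44 (SE 0.45, adjusted p = 0.000459). In the small intestine Slit2 was at 0.57 (SE 0.37, adjusted p = 0.318) and 1.17 (SE 0.43, adjusted p = 0.0771). Their receptors Robo1 and Robo2 were called in none, with 17.95 to 114.0 and 21.9 to 141.2 CPM in neuronal libraries. Sema4f, another transmembrane semaphorin, averaged 65.4 ± 7.93 CPM in SPF small intestinal neuronal libraries and 0.29 ± 0.27 CPM in non-neuronal ones (SD, n = 4 each; log2 fold change 7.58, SE 1.39, adjusted p = 0.000251).

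Genes that act beyond the receptors were taken from 2 lists that are not members: 39 cytoplasmic effectors and 17 other cues and coreceptors. Of the 39 effectors, 5, 6, 4 and 6 were higher and 3, 3, 3 and 1 lower in neuronal nuclei in the colon and small intestine of SPF and then of GF mice. Of all tested genes, 3.27%, 9.09%, 2.19% and 5.6% were higher and 7.56%, 5.99%, 4.96% and 5.33% lower, in the same order. Crmp1, a collapsin response mediator of semaphorin signalling, was higher in all 4, for example at 361.3 against 58.2 CPM in the SPF colon (log2 fold change 2.58, adjusted p = 0.00562). Srgap3, a GTPase-activating protein of the Slit and Robo pathway, was also higher in all 4 and averaged 553.7 against 61.3 CPM in the SPF small intestine (3.04, adjusted p = 7e-06). Dock1, an exchange factor that couples Dcc to Rac, was lower in all 4. Of the 17 other cues and coreceptors, 2, 5, 2 and 4 were higher and 1, 2, 0 and 1 lower. Celsr3, an atypical cadherin, and L1cam, an adhesion protein that associates with neuropilin-1, were higher in all 4, L1cam at 1334 against 512.5 CPM in the SPF colon. Lrrc4c, the partner of netrin-G1, was higher in both small intestinal comparisons, at 182.1 against 33.7 CPM in SPF libraries (2.15, adjusted p = 0.00594).

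Whether the difference between fractions varied with the segment was tested as an interaction, colon minus small intestine, over the mean of SPF and GF. Of 68 members, 2 were called higher and 4 lower, against 0.51% and 2.75% of all genes, 3.26% together. A higher value means a greater neuronal excess, or a smaller neuronal deficit, in the colon. With size factors of the relative log type in place of TMM scaling, 4 were higher and 4 lower. Epha8 (-8.17, SE 1.57, adjusted p = 0.00223), Slit1 (-4.55, SE 0.95, adjusted p = 0.00351), Epha6 (-4.24, SE 1.03, adjusted p = 0.0141) and Epha5 (-3.70, SE 0.81, adjusted p = 0.00933) had the smaller neuronal excess in the colon. Sema3a (3.08, SE 0.63, adjusted p = 0.00266) and Sema3e (3.16, SE 0.87, adjusted p = 0.0318) went the other way. Sema3a was lower in neuronal nuclei in both segments, so its value marks a smaller deficit in the colon. The call for Sema3e was lost without any 1 of 8 libraries.

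For Epha5 the neuronal levels of the segments overlapped and the non-neuronal ones did not. SPF small intestinal neuronal libraries held 240.5, 352.9, 416.8 and 271.8 CPM of Epha5 and SPF colonic ones 337.9, 426.6, 372.2 and 659.4 CPM. SPF colonic non-neuronal libraries held 144.8, 71.5, 43.6 and 51.4 CPM of Epha5, and small intestinal ones 41.7, 0.95, 1.11 and 2.48 CPM. GF non-neuronal libraries held 118.9, 127.9 and 72.3 CPM in the colon and 0.22, 4.58 and 1.09 CPM in the small intestine. Every colonic non-neuronal library was above every small intestinal one. Slit1 stood at 3.51, 15.8, 1.57 and 1.76 CPM in SPF colonic non-neuronal libraries and at most 0.32 CPM in SPF small intestinal ones, and in GF libraries at 16.6, 14.02 and 5.19 against 0, 3.05 and 0.68 CPM. Epha8 had 0 counts in 6 of 7 small intestinal non-neuronal libraries. Its neuronal mean in SPF mice was 17.7 ± 15.1 CPM in the colon and 103.7 ± 47.3 CPM in the small intestine (SD, n = 4 each). GF neuronal libraries overlapped, with 119.0, 2.021 and 45.73 CPM in the colon and 91.58, 96.85 and 73.45 CPM in the small intestine. Epha8 was not called between neuronal segments. Beside these stands the neuronal marker sum, which was at least 716.5 CPM in each colonic and at most 661.4 CPM in each small intestinal non-neuronal library. In the same interaction the 9 neuronal markers had a median of -2.98 with 3 lower, the members a median of -1.04 and all genes -0.32. The part of neuronal RNA in the non-neuronal fraction in these calls was not tested.

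**Figure D4:**
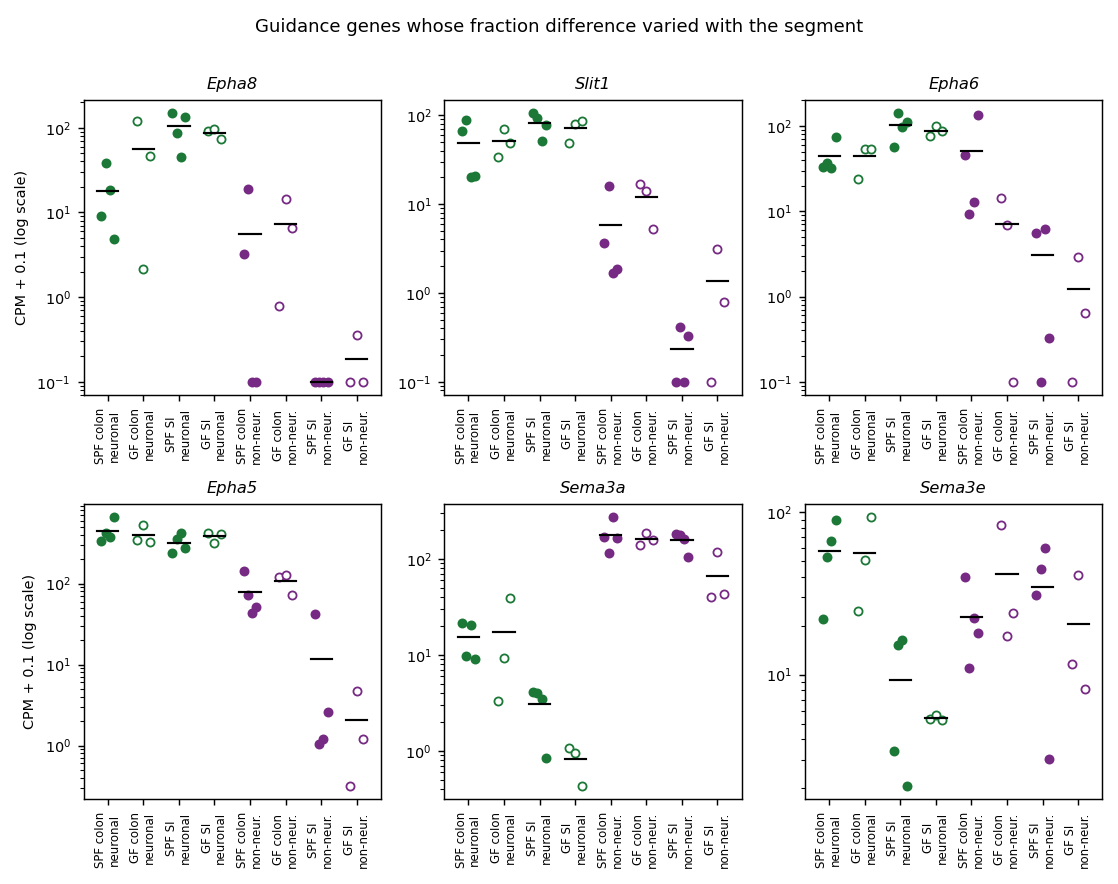
CPM plus 0.1, on log axes, of the 6 members whose difference between fractions varied with the segment, in the libraries of the 8 groups (SI, small intestine); each point is a library, filled for SPF and open for GF, green for neuronal and purple for non-neuronal, and bars are group means. Epha8, Slit1 and Epha5 are lowest in small intestinal non-neuronal libraries, and Sema3a is lowest in small intestinal neuronal libraries.

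Colonic and small intestinal neurons were compared within the neuronal fraction, where 55 members were tested among 17298 genes. Over the mean of SPF and GF, 4 members were higher and 2 lower in the colon, with 1.1% and 1.28% of all genes called, 2.38% together, and the median difference was 0.06 for members and 0.02 for all genes. Within SPF libraries alone edgeR called 0 members (14 at an unadjusted p below 0.05, and 10 by DESeq2), and 0.249% of all genes higher and 0.405% lower. Within GF libraries alone it called 0 (8 at an unadjusted p below 0.05, and 4 by DESeq2), and 0.133% of all genes higher and 0.168% lower. With the replicate number as a block, 2 members were higher and 1 lower over the mean; the labels do not say whether a number marks 1 animal.

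Sema3e, a secreted semaphorin that binds plexin-D1 directly, ran from 21.9 to 93.2 CPM (median 53.1) in the 7 colonic and from 1.97 to 16.3 CPM (median 5.20) in the 7 small intestinal neuronal libraries. The groups did not overlap, as for 0.723% of all genes in this direction, and the log2 fold change was 3.00 (SE 0.54, adjusted p = 0.00153). Unc5d also did not overlap, with 36.9 to 81.4 CPM (median 62.3) in the colon and 11.6 to 29.4 CPM (median 16.3) in the small intestine (1.70, SE 0.39, adjusted p = 0.0163). Sema3a ran from 3.19 to 38.9 CPM (median 9.75) in colonic and 0.33 to 4.02 CPM (median 0.97) in small intestinal neuronal libraries (3.39, SE 0.83, adjusted p = 0.023). These small intestinal values are close to the level of 3 counts. Unc5c was higher by less, at 233.5 to 481.2 CPM (median 388.4) against 151.9 to 262.6 CPM (median 223.4), with a difference of 0.77 (SE 0.20, adjusted p = 0.0341). Leaving out 1 of the 14 libraries at a time, the call was lost in 9 of the fits for Unc5c, in 4 for Sema3a and in 2 for Unc5d.

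The 2 members that were lower in colonic neurons are both RNAs of the non-neuronal fraction as well. Sema5a ran from 0 to 19.8 CPM (median 6.74) in colonic and from 18.8 to 77.8 CPM (median 54.4) in small intestinal neuronal libraries (-2.78, SE 0.68, adjusted p = 0.0223). Plxna1 ran from 4.04 to 9.91 CPM (median 7.24) against 10.4 to 111.7 CPM (median 18.9), without overlap, as for 0.78% of all genes in this direction (-2.27, SE 0.60, adjusted p = 0.0385). Its highest value was in SPF small intestinal replicate 1, and without that library its difference was -1.73, the smallest in size with any 1 library left out. The call for Plxna1 was lost without any 1 of 10 of the 14 libraries and that for Sema5a without any 1 of 4. Ano1, 1 of the 4 markers of interstitial cells of Cajal, stood at 0 to 1.62 CPM in colonic neuronal libraries. It stood at 24.2 to 106.9 CPM in 6 small intestinal ones, and at 678.6 CPM in that same replicate 1. All 4 markers summed to 346.2 to 504.3 CPM (SPF) and 299.2 to 441.7 CPM (GF) in colonic neuronal libraries. In small intestinal ones they summed to 660.3 to 2024 CPM (SPF) and 447.6 to 662.2 CPM (GF). Ano1 thus did not stand for its list, since other markers of it were present in the colon. Of the 4 markers of these cells 1 was called lower in the colon (median -4.40), and of the 37 mitochondrially encoded genes 10 were called lower, with 14 tested (median -2.74). Their part in the values of Sema5a and Plxna1 was not tested. Without 1 library at a time, 1 to 7 members were called. Only 1 was called without GF small intestinal replicate 3, 2 without GF small intestinal replicate 2, and 3 without GF small intestinal replicate 1 or GF colonic replicate 2. Sema3e was called in all 14 of these fits.

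**Figure D5:**
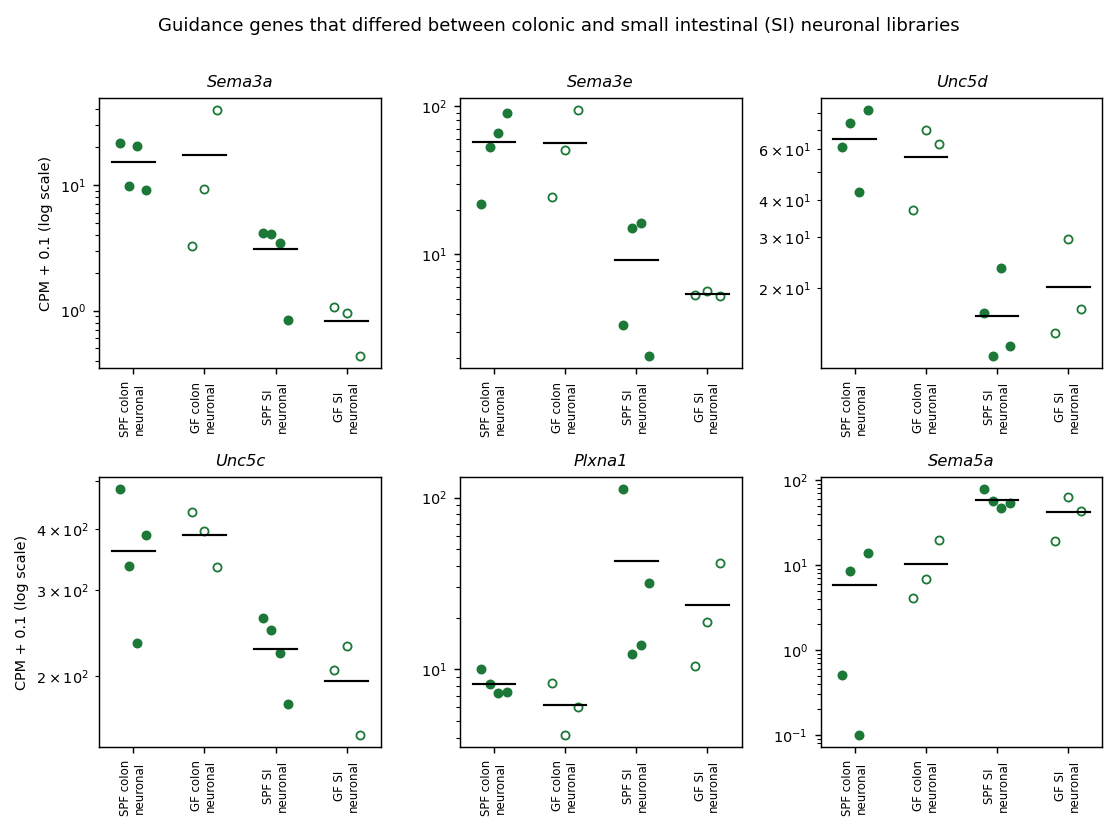
CPM plus 0.1, on log axes, of the 6 members called between colonic and small intestinal (SI) neuronal libraries over the mean of SPF and GF; each point is a library, filled for SPF and open for GF, and bars are group means. Sema3e and Unc5d lie higher in all 7 colonic than in any of the 7 small intestinal libraries, and Plxna1 lies lower in all 7.

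In the non-neuronal fraction, 64 members were tested among 18267 genes. Over the mean of SPF and GF, Epha5 and Epha8 were higher and Nrp2 and Slit2 lower in the colon, with 2.86% and 2.27% of all genes called, 5.13% together. In GF libraries alone Epha5 (5.27, SE 1.27, adjusted p = 0.0431) and Nrp2 (-1.57, SE 0.34, adjusted p = 0.0218) were called, against 0.219% and 0.493% of genes. Both calls were lost without any of GF colonic replicates 1 to 3 or GF small intestinal replicate 1, and that of Epha5 also without GF small intestinal replicate 3. In SPF libraries alone edgeR called 0 members (16 at an unadjusted p below 0.05, and 6 by DESeq2), and 1.09% of all genes. Epha5 ran from 43.6 to 144.8 CPM (median 72.3) in colonic and from 0.22 to 41.7 CPM (median 1.11) in small intestinal libraries (3.85, SE 0.79, adjusted p = 0.00372). Epha8 averaged 6.19 ± 7.55 CPM in the 7 colonic libraries and had 1 count in all in the 7 small intestinal ones, and its call (adjusted p = 0.0419) was lost without 11 of the 14 libraries. In the same comparison 4 of 9 neuronal markers were called higher, with a median of 2.91, and their part in these calls was not tested.

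Nrp2 ran from 298.1 to 712.3 CPM (median 506.5) in colonic and from 516.8 to 1015 CPM (median 617.6) in small intestinal non-neuronal libraries, with overlap (log2 fold change -1.10, SE 0.22, adjusted p = 0.00304). Slit2 ran from 19.6 to 148.7 CPM (median 84.8) and from 54.5 to 309.0 CPM (median 162.8), also with overlap (-1.29, SE 0.36, adjusted p = 0.0339). These fitted differences are greater than those of the CPM, since TMM scaling factors were 1.14 to 1.36 in colonic and 0.54 to 1.04 in small intestinal non-neuronal libraries. Slit2 lost its call without any 1 of 8 libraries. Of 15 tested mitochondrially encoded genes, 13 were also lower in the colon (median -2.50), as were 4 of 10 smooth muscle and 2 of 6 fibroblast markers. Mitochondrial transcripts took 3.49% to 10.8% of counts in colonic and 11.1% to 35.6% in small intestinal non-neuronal libraries. Their part in the values of Nrp2 and Slit2 was not tested. In neuronal libraries the segment difference was 0.12 (SE 0.22, adjusted p = 0.862) for Nrp2 and 0.13 (SE 0.20, adjusted p = 0.818) for Slit2.

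The comparison of SPF with GF mice asked whether the microbiota alters the same genes. All Xist-high libraries were SPF, so SPF and GF groups also differed in that respect. In the 3 comparisons of neuronal libraries (colon, small intestine and the mean of both) edgeR called 0 of 55 members and 0% of all genes. At an unadjusted p below 0.05 there were 6, 1 and 5 members, and DESeq2 called 1 (Rgma in the colon), 0 and 0. In the 3 comparisons of non-neuronal libraries it called 0 of 64 members, and 0%, 0.00547% and 0% of all genes. There were 0, 8 and 3 members at an unadjusted p below 0.05, and DESeq2 called 0, 1 and 0.

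The member of lowest p over both segments in neurons was Nrp2. SPF neuronal libraries held 1328, 512.1, 486.8 and 517.9 CPM in the colon and 835.6, 595.0, 507.8 and 453.3 CPM in the small intestine. GF ones held 421.4, 421.1 and 417.2 CPM in the colon and 363.1, 395.3 and 409.1 CPM in the small intestine. The log2 fold change was 0.64 (SE 0.22, adjusted p = 0.758, unadjusted p = 0.00741). Without SPF colonic replicate 1, the library at 1328 CPM, it was 0.38. In colonic non-neuronal libraries Nrp2 averaged 603.1 ± 94.1 CPM in SPF (SD, n = 4) and 394.3 ± 103.3 CPM in GF (SD, n = 3), with a difference of 0.63 (SE 0.31, adjusted p = 1). The other members at an unadjusted p below 0.05 over both segments in neurons were Unc5b, Slit3 (0.71, SE 0.30, adjusted p = 0.758), Rgma and Sema6d (-0.47, SE 0.22, adjusted p = 0.781). Without GF colonic replicate 2 the value of Sema6d was -0.22. Rgma and Unc5b had low p-values in colonic neurons with a single high GF library each: Rgma stood at 40.8 CPM in replicate 2 and Unc5b at 31.6 CPM in replicate 3, and their other GF colonic neuronal libraries were at most 0.30 CPM. Ephb2, an ephrin-B receptor, averaged 34.7 ± 10.9 CPM in SPF (SD, n = 4) and 7.59 ± 7.07 CPM in GF colonic neurons (SD, n = 3; 2.06, SE 0.86, adjusted p = 0.461).

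In small intestinal non-neuronal libraries the lowest p belonged to Plxnb2, at 39.5 ± 35.5 CPM in SPF (SD, n = 4) and 109.0 ± 50.4 CPM in GF (SD, n = 3; -2.01, SE 0.67, adjusted p = 0.306). Nrp1, the coreceptor of Sema3A, stood at 26.5, 76.0, 88.5 and 47.2 CPM in SPF and at 1.96, 23.9 and 6.83 CPM in GF libraries (2.42, SE 0.92, adjusted p = 0.365), and DESeq2 called it. Sema3a itself stood at 181.2, 176.0, 160.9 and 104.3 CPM in SPF and 40.4, 116.5 and 42.6 CPM in GF libraries (1.02, SE 0.45, adjusted p = 0.414). Neither difference passed the adjusted threshold of edgeR.

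The members that were too low to be tested between fractions were Efna2, Efna3, Efna4, Sema3g and Ntn5. Their highest values in any library were 1.33 CPM for Efna2, 10.8 CPM for Efna3 (GF colonic neuronal), 7.58 CPM for Efna4 (SPF colonic non-neuronal), 11.98 CPM for Sema3g (SPF colonic neuronal) and 1.95 CPM for Ntn5. No member was at 3 counts or fewer in every library. For these 5, differences between groups were not detectable at this depth.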

How the data were processed

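The deposited values are expected counts per gene, which need not be whole (7.48% were not). Per the submitters' processing notes the authors used RSEM 1.3.0, STAR 2.5.2, DESeq2 1.10.1 and GRCm38, and the strand setting of the counting is not stated in the sources used. Of 51912 gene IDs, 51719 matched GENCODE M21, and 19 members share exon bases with another gene, 15 of them on the opposite strand. Expected counts were rounded and fitted with edgeR 4.0.16 in R 4.3.3 (TMM scaling, group-aware low-count filter, robust quasi-likelihood F test, Benjamini-Hochberg adjustment over all tested genes), 1 fit over all 28 libraries for the fractions and 1 within each fraction for segment and microbiota. The fits were tested on simulated data. DESeq2 1.42.0 and other settings were alternatives. CPM use the library total. Between 36 pairs of libraries within groups, 0 were identical. In each comparison called members were named by size of change where the group with more of the RNA averaged 5 CPM or above, up to 12 per direction, with the 5 of lowest p where fewer than 5 were called and, in each family, the member of highest level per kb. Other members named as examples were chosen after their values were seen. The members and lists were chosen with earlier results of these data known.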

Additional observations from a re-analysis of the deposited data

Results flagged for a closer look

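Single libraries stood far from the rest of their group of 4 in 17 of 110 groups examined over 35 members, in 13 members. For normally distributed values chance alone flags about 1 in 20 groups. The CPM of low counts are skewed, so the share that chance flags here is not known. Among SPF colonic neuronal libraries, replicate 1 was low in Ntng1 (81.79 CPM, the nearest other library 414.3) and high in Nrp2 (1328 CPM, nearest 517.9), replicate 3 was high in Sema6a (137.1, nearest 102.4) and replicate 4 high in Epha6 (74.38, nearest 36.81). Among SPF small intestinal neuronal libraries, replicate 1 was low in Rgmb (44.19 CPM, nearest 116.9). Among SPF colonic non-neuronal libraries, replicate 2 was high in Slit1 (15.81 CPM, nearest 3.513) and Epha8 (18.84, nearest 3.122), replicate 1 in Plxnb3 (138.2, nearest 25.06), replicate 3 in Epha2 (29.76, nearest 3.464) and replicate 4 in Epha3 (29.97, nearest 3.897). Among SPF small intestinal non-neuronal libraries, replicate 1 was high in Epha5 (41.74 CPM, nearest 2.483), Epha2 (25.56, nearest 4.515), Sema6a (305.1, nearest 76.91) and Nrp2 (1015, nearest 617.6). In the same group replicate 2 was high in Unc5a (43.04 CPM, nearest 0.5567), replicate 3 in Epha3 (45.09, nearest 10.35) and replicate 4 in Ephb4 (39.28, nearest 4.53).

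The difference between fractions varied with the segment, by the interaction test of edgeR, for 6 members, with log2 values of -3.695 for Epha5, -4.244 for Epha6, -8.17 for Epha8, 3.083 for Sema3a, 3.156 for Sema3e and -4.554 for Slit1.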

How the results depend on the processing

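Without 1 library at a time, the members called between fractions numbered 19 to 24 (25 with all libraries) in the SPF colon, 21 to 26 (25) in the SPF small intestine, 11 to 16 (16) in the GF colon and 15 to 22 (23) in the GF small intestine, where 15 were called without non-neuronal replicate 1 or neuronal replicate 2 or 3. The interaction gave 5 to 9 (6). Segment calls numbered 0 to 2 (0) in SPF, 0 to 1 (0) in GF and 1 to 7 (6) over the mean in neuronal libraries, and 0 to 1 (0), 0 to 2 (2) and 2 to 4 (4) in non-neuronal ones, with 2 of these 4 without GF colonic replicate 1 or 3 or GF small intestinal replicate 1 or 2. Each of the 6 microbiota comparisons gave 0 to 0. The microbiota difference of Unc5b ran from -6.44 (without SPF colonic neuronal replicate 4) to 1.25 (without GF colonic neuronal replicate 3) in the colon and from -3.46 to 0.386 over both segments without the same libraries. That of Rgma over both segments ran from -2.87 (without SPF replicate 2) to 0.295 (without GF replicate 2).

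DESeq2 called 12 members in the interaction (4 higher and 8 lower), 10, 4 and 11 between neuronal segments in SPF, GF and the mean, 6 and 10 between non-neuronal segments in SPF and the mean, and 1 for the microbiota in colonic neuronal and 1 in small intestinal non-neuronal libraries. Without a low-count filter, segment calls were 4 (SPF) and 1 (GF) in neuronal and 2 (SPF) in non-neuronal libraries. With only the compared groups in the fit they were 2 in SPF neuronal and 1 in GF non-neuronal libraries, and with all 28 libraries 1 in GF neuronal, 6 in SPF non-neuronal and 12 over the mean in non-neuronal ones. The cause was not tested. RLE size factors moved the median of all genes from -0.07 to -0.18 in the GF colon and from 0.03 to -0.08 in the SPF small intestine. With them all 145 results picked by the naming rule kept direction and side of the threshold. Members outside these 145 did cross it, since more were called in the interaction.

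Whether replicate numbers mark 1 animal is not stated. Over 42 pairs with the same number the deviations correlated from -0.023 to 0.0788 (median 0.00945), with 0 over 0.1. Over 108 pairs with different numbers the median was -0.0027. No pairing was taken, though SPF replicates 3 and 4 were the Xist-high ones in every group. Correlations this low do not show that libraries of the same number came from separate animals. With the replicate number as a block, segment calls were 1 in SPF and 3 over the mean in neuronal and 3 in SPF non-neuronal libraries. Of the 145 results picked by the naming rule, 133 kept direction and side. A term for Xist changed the side of 2 of these 145.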
